A study of Mus musculus with 6 samples.

Results

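The genes described here are the collagen chains and a set of other extracellular matrix proteins in whole fetal mouse hearts, 48 of the 15118 genes listed. They were chosen by symbol. All rows named Col, a number, a and a number were taken, which gave 34 collagen genes, and 14 non-collagenous genes were added by name (Fn1, Postn, Lum, Dcn, Bgn, Vcan, Fbln1, Fbln2, Sparc, Eln, Fbn1, Fbn2, Hapln1 and Nid1). Of the 48 genes, 42 had at least 1 RPKM in at least 3 hearts and entered the test. The other 6 (Col8a1, Col25a1, Col11a2, Col7a1, Col4a4 and Col4a3) are given as values. The mouse name table holds 44 collagen symbols of this form, and the 10 with no row here are not analysed. RPKM stands for reads per kilobase of exon, scaled to the size of the library. Levels are thus per length of the exons listed for a gene, and a comparison between genes depends on that length.

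RNA came from 6 whole hearts of Black-Swiss embryos at E12.5, mid-gestation. The 3 Hif1a mutant hearts (numbered 5, 8 and 10) had the genotype NKX2-5 Cre/WT with Hif1a Null/flox, and the 3 control hearts (2, 5 and 9) had NKX2-5 Cre/WT with Hif1a WT/flox. HIF1A, the product of the targeted gene, is stabilised at low oxygen and acts in a transcription factor that switches on genes for life at low oxygen, and the study set fetal hearts deleted for it against hearts that keep a working allele. Both genotypes carry the Cre, which is expressed from the Nkx2-5 gene in cardiac progenitors and heart muscle, and a floxed Hif1a allele. The null allele of the mutants is present in every cell, with or without Cre activity. Which exons the deletion removes is not stated in the labels. Each sample is a heart, and nothing states that litters or days differed, so p-values measure only the spread between these samples.

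Collagens are secreted proteins whose chains wind around each other into a helix, and the helices assemble outside the cell. The fibrillar types form the tension-bearing fibres of connective tissue, while the chains of type IV form the sheet-like network of basement membranes under endothelium, epicardium and around muscle cells, where nidogen ties it to laminin. In the fetal heart at this stage matrix fills the endocardial cushions, which become valves, and lies beneath the endocardium and epicardium. Proteoglycans and glycoproteins such as versican, decorin, fibronectin and periostin bind these fibres or the cells that attach to them.

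The steps between low values imply 142700000, 101400000 and 159300000 reads behind mutants 5, 8 and 10 and 131700000, 138400000 and 124300000 reads behind controls 2, 5 and 9. The lowest value of a tested matrix gene rests on about 366 reads. Hif1a itself (ENSMUSG00000021109) had 75.7, 55.0 and 77.7 RPKM in mutants 5, 8 and 10 and 61.1, 46.4 and 46.4 RPKM in controls 2, 5 and 9 (limma adjusted p = 0.36). This value covers the gene as a whole and does not check the deletion. As a check of the tissue, summed RPKM of 11 cardiomyocyte markers lay between 20050.5 and 21768 in mutant hearts and between 18933 and 20929 in control hearts. Mutant 8 and control 2 lay at opposite ends of the first principal component, which held 45.3% of the variance, with scores of 26.2 and -21.4. The summed RPKM of 27 copies of 5S ribosomal RNA ranged from 29.8 to 184 in mutant hearts and from 10.2 to 69.6 in control hearts. Results below that rest on these hearts are also given without them.

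Promoter sequences of 4 members are printed because the results turn on these genes. Col1a2 had the lowest log2 change of the tested members, Col15a1 the lowest adjusted p, and Col4a1 and Col4a2 start from a shared region in opposite directions. The sequences are from RefSeq on GRCm38.p6 and run 5′ to 3′ on the gene's own strand. They cover 250 bases before and 50 bases after the start listed there. Gene positions given below are from GENCODE and can differ from it. The Col15a1 window ends before its GENCODE start at 47208161, and the Col1a2 window begins after its GENCODE start at 4504814. Capitals mark the core of HIF binding elements, ACGTG or GCGTG on either strand. The windows are chr6:4505368-4505667 (+ strand) for Col1a2, chr4:47207762-47208061 (+ strand) for Col15a1, chr8:11312777-11313076 (- strand) for Col4a1 and chr8:11312555-11312854 (+ strand) for Col4a2.
Col1a2: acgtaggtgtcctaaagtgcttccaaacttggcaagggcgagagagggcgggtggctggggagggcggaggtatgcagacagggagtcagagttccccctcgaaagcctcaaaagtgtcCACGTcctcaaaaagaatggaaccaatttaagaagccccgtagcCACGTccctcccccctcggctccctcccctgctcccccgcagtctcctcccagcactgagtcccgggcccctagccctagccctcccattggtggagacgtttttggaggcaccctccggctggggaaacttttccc
Col15a1: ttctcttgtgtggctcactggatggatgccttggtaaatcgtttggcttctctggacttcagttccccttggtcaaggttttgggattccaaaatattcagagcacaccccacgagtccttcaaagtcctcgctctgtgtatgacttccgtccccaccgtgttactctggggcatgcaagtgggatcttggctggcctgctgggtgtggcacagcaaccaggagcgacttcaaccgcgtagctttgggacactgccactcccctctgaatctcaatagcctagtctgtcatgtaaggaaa
Col4a1: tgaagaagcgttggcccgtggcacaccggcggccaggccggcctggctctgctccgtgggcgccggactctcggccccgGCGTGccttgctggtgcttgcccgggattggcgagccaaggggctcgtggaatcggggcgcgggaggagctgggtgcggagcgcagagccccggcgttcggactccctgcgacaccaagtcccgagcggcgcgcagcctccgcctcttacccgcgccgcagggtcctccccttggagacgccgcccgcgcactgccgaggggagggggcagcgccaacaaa
Col4a2: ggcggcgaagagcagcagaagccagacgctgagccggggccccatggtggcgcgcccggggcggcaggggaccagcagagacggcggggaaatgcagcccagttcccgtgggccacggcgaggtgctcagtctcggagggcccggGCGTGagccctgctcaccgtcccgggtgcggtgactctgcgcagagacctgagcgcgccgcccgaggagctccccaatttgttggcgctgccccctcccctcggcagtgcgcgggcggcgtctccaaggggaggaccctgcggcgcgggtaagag

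The Col1a2 window held 2 HIF cores, 2 CCAAT boxes and 2 copies of GGGCGG, the letters of a GC box. The Col15a1 window held none of these 3 motifs. The Col4a1 window held 1 HIF core and the Col4a2 window held 1, and these 2 windows share 78 bases, chr8:11312777-11312854. Among the 40 RefSeq windows of the 35 members with an entry, 14 held a HIF core (35%), against 43.8% of 32817 mouse promoter windows of the same length. CCAAT, searched on both strands like the other motifs, was in 13 windows (32.5%), against 37.4% of all. GGGCGG was in 26 windows (65%), against 35.6% of all. A match is a run of letters and not a measured binding site.

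The levels of the matrix genes covered more than 3 orders of size in these hearts. Sparc, a collagen-binding matricellular glycoprotein, averaged 302 RPKM in mutant hearts and 331 RPKM in control hearts, and Col3a1, Col1a1, Fn1, Col4a1 and Col1a2 followed. At the low end Col4a3 averaged 0.263 RPKM in mutant hearts and 0.579 RPKM in control hearts. The 48 genes together summed to 1172, 1253 and 1084 RPKM in mutants 5, 8 and 10 and to 1263, 1519 and 1436 RPKM in controls 2, 5 and 9. The mutant sums all lay below the control sums, with mutant 8 and control 2 close to each other. In bulk RNA fewer cells of a type and less RNA per cell cannot be told apart, which holds for every value here.

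**Figure D1:**
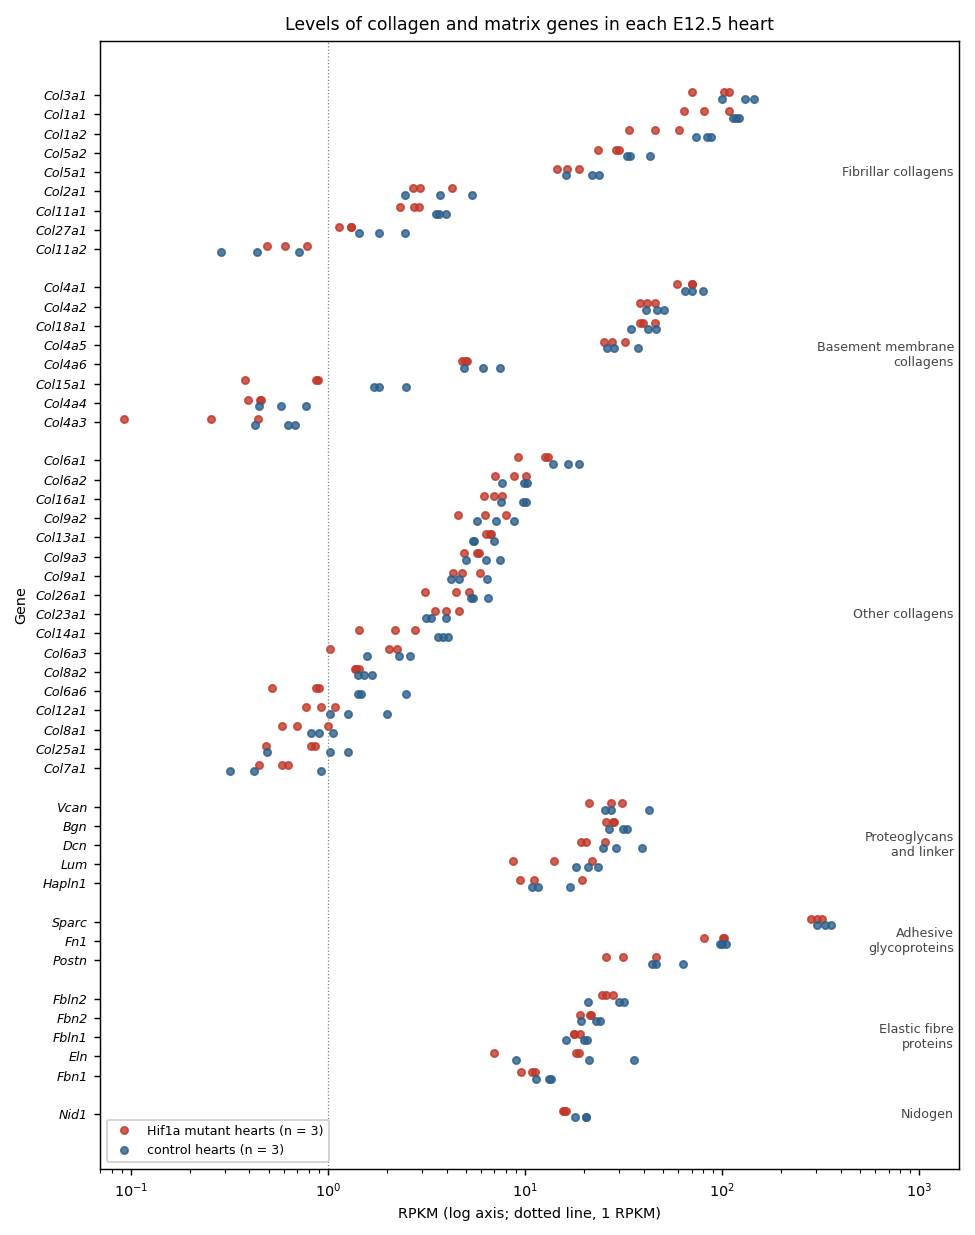
RPKM of each of the 48 matrix genes (rows, grouped by class) on a log axis, with a point for each mutant heart and each control heart. Sparc stands highest, at 283 to 321 RPKM in mutant hearts and 304 to 357 RPKM in control hearts, and for most genes the mutant and control points lie within a small distance of each other.

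No matrix gene passed the test at an adjusted p under 0.05 (limma on log2(RPKM + 1), Benjamini-Hochberg over 13080 genes), where 107 genes or 0.818% of all did. At an unadjusted p under 0.05 in limma, 16 of the 42 tested members were lower in mutant hearts and 0 were higher, against 6.26% of all tested genes lower and 4.92% higher. For 12 members every mutant heart lay below every control heart, and for 0 the reverse held, against 9.43% and 7.6% of all tested genes. The median log2 change, mutant minus control, was -0.24 over the 42 tested members and -0.19 over all 48 rows, against -0.03 over all tested genes. Of the 48 rows, 43 had a negative log2 change and 5 a positive one, and of the 42 tested members 39 and 3. Every listed gene has a geometric mean of at least 0.5 RPKM in 1 or both genotypes. Among the untested members, Col4a3 and Col4a4 reached this only in control hearts, and Col11a2 and Col7a1 only in mutant hearts. The signs of these untested rows were thus nearly fixed, which limits the counts and the median over all 48. Among all 13080 tested genes 7513 changes were negative and 5567 positive. Col15a1 and Col6a6 passed the filter only through the control hearts and so had to differ. Both are among the 12 members without overlap. Among the other 40 tested members 14 were lower at an unadjusted p under 0.05.

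The count of members depended on single hearts. Without mutant 10 it was 7 of 42, without control 5 it was 6 of 40, and without control 9 it was 10 of 40, while 4.29%, 3.47% and 5.28% of all genes were lower at that level. Mutant 10 was the lowest of the 6 hearts for 24 of the 42 tested members, and control 5 was the highest for 29. Without control 2 and mutant 8 together 23 of 40 members were lower at an unadjusted p under 0.05 (7.17% of all genes), and Col1a2 passed the adjusted threshold.

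**Figure D2:**
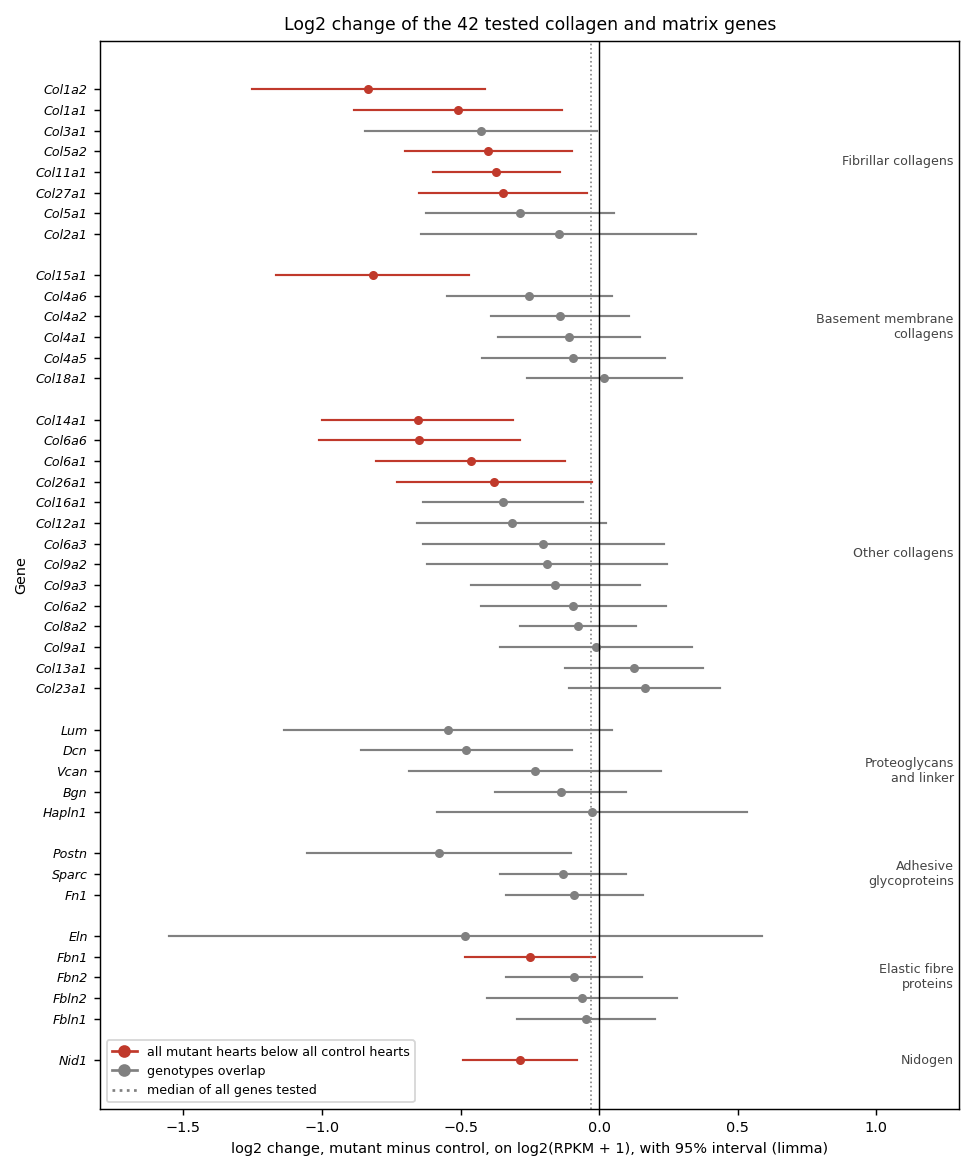
Log2 change (mutant minus control, on log2(RPKM + 1)) with its 95% interval for the 42 tested matrix genes, grouped by class. Genes in red are the 12 for which all mutant hearts lay below all control hearts, among them Col1a2 at -0.83, and the dotted line is the median of all tested genes, -0.03. For Col15a1 and Col6a6, also in red, this was fixed, as they passed the filter only through the control hearts.

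Among fibrillar collagens 9 genes had a row and 8 were tested. None passed the adjusted threshold, and 6 were lower in mutant hearts at an unadjusted p under 0.05, with a median log2 change of -0.39. Over all tested genes 6.26% were lower at that level, and the median was -0.03. Col1a1 and Col1a2 encode the chains of type I collagen, the main fibre of connective tissue. Col1a1 (ENSMUSG00000001506, chr11:94936224-94953042, + strand) had 80.8, 108 and 64.1 RPKM in mutants 5, 8 and 10, against 114, 117 and 122 RPKM in controls 2, 5 and 9. The mean was 84.4 ± 22.3 RPKM in mutant hearts and 118 ± 4.04 RPKM in control hearts (SD, n = 3 each), a log2 change of -0.51 ± 0.17 (SE, limma adjusted p = 0.29). The control hearts lay close together, the mutant hearts were spread, and the groups did not overlap. Col1a2 (ENSMUSG00000029661, chr6:4504814-4541544, + strand), whose promoter is printed above, had 45.5, 60.7 and 33.7 RPKM in mutants 5, 8 and 10, against 73.7, 84.2 and 87.4 RPKM in controls 2, 5 and 9. Its mean was 43.0% lower, at 46.6 ± 13.6 RPKM in mutant hearts and 81.8 ± 7.15 RPKM in control hearts (SD, n = 3 each), a log2 change of -0.83 ± 0.19 (SE, limma adjusted p = 0.11). All 3 mutant hearts were below all 3 control hearts, and mutant 10 was lowest for both chains. Without mutant 8 both chains passed the threshold (limma adjusted p = 0.045 for Col1a1 and 0.020 for Col1a2).

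Col3a1, the chain of type III collagen of elastic connective tissue and vessels, overlapped between the genotypes. It had 108, 103 and 70.4 RPKM in mutants 5, 8 and 10, against 100.4, 145 and 131 RPKM in controls 2, 5 and 9 (log2 change -0.43 ± 0.18, limma adjusted p = 0.44). Mutant 10 stood apart below the rest, and control 2 lay under mutants 5 and 8. Col5a2, a chain of type V collagen, which starts fibres and limits their width, had 29.0, 30.0 and 23.6 RPKM in mutants 5, 8 and 10, against 32.9, 43.1 and 34.1 RPKM in controls 2, 5 and 9 (log2 change -0.40 ± 0.13, limma adjusted p = 0.30). Here the groups did not overlap. Col5a1, its partner chain, had 16.4, 18.9 and 14.5 RPKM in mutants 5, 8 and 10, against 16.2, 23.7 and 21.9 RPKM in controls 2, 5 and 9, and control 2 lay below 2 mutant hearts.

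The minor fibrillar chains were at a few RPKM. Col11a1, which joins type V chains in mixed fibres and type II collagen in cartilage, had 2.73, 2.89 and 2.33 RPKM in mutants 5, 8 and 10, against 3.64, 3.97 and 3.53 RPKM in controls 2, 5 and 9 (log2 change -0.37 ± 0.10, limma adjusted p = 0.20). Its mean was 2.65 ± 0.289 RPKM in mutant hearts and 3.72 ± 0.228 RPKM in control hearts (SD, n = 3 each), without overlap. Col27a1, a fibrillar chain known mainly from cartilage, had 1.31, 1.32 and 1.14 RPKM in mutants 5, 8 and 10, against 1.43, 2.45 and 1.81 RPKM in controls 2, 5 and 9, with no overlap. Col2a1, the cartilage collagen, ranged from 2.70 to 4.28 RPKM in mutant hearts and from 2.46 to 5.40 RPKM in control hearts. Col11a2 was not tested and was the fibrillar gene with a positive change, at 0.493 to 0.784 RPKM in mutant hearts and 0.286 to 0.710 RPKM in control hearts. It is listed only through its level in the mutant hearts, so this sign was nearly fixed.

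**Figure D3:**
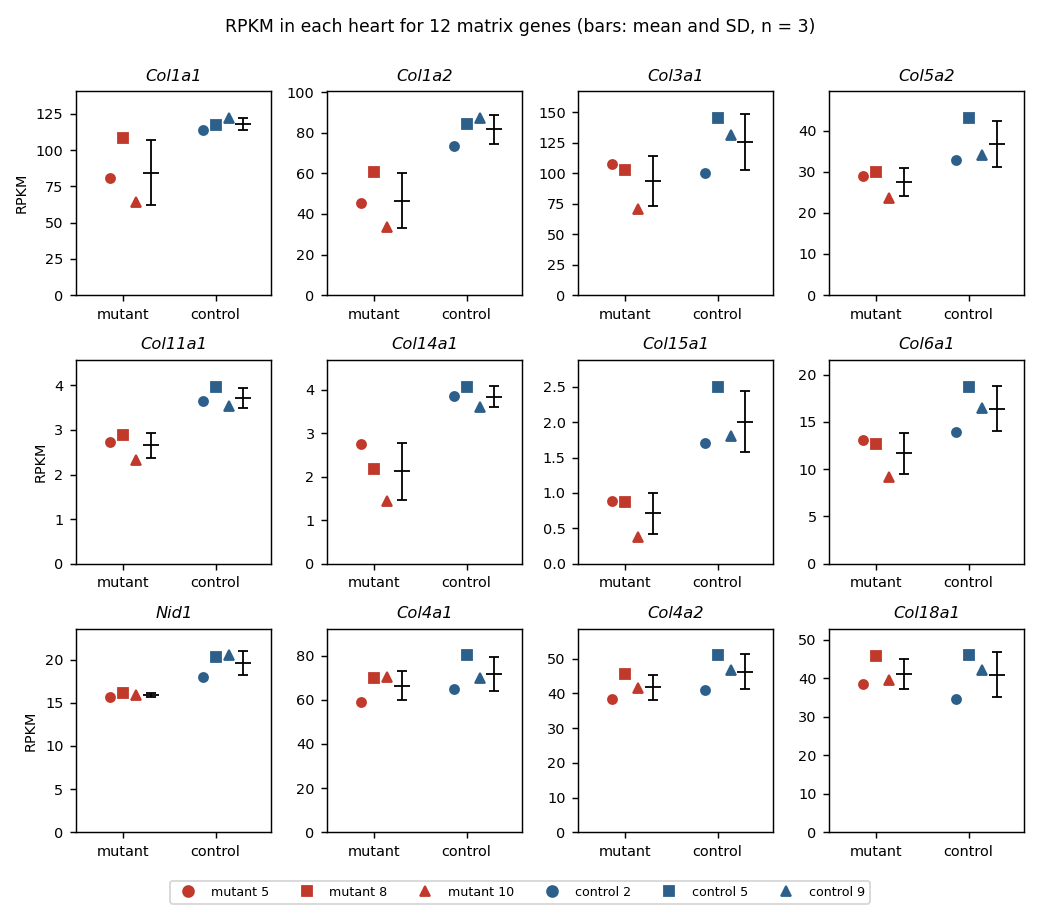
RPKM in each heart for 12 matrix genes, with mutant hearts left of control hearts in each panel, symbols for single hearts and bars for the mean and SD (n = 3). The genotypes do not overlap for Col1a1, Col1a2, Col5a2, Col11a1, Col14a1, Col15a1, Col6a1 and Nid1, while Col4a1 averages 66.4 RPKM in mutant hearts and 71.7 RPKM in control hearts with overlap. For Col15a1 this was fixed, as it passed the filter only through the control hearts.

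Basement membrane collagens had 8 rows, of which 6 were tested. None passed the adjusted threshold, 1 (Col15a1) was lower at an unadjusted p under 0.05, and the median log2 change was -0.12. The share lower among all tested genes was 6.26%, and their median was -0.03. Col4a1 and Col4a2, the chains of the main network of type IV collagen, lie head to head on chromosome 8 and share 22 bases at their starts. Col4a1 (ENSMUSG00000031502, chr8:11198423-11312826, - strand) had 58.9, 70.0 and 70.3 RPKM in mutants 5, 8 and 10, against 65.0, 80.1 and 70.0 RPKM in controls 2, 5 and 9. The log2 change was -0.11 ± 0.11 (SE, 95% interval -0.36 to 0.15, limma adjusted p = 0.75). Col4a2 had 38.2, 45.4 and 41.6 RPKM in mutants 5, 8 and 10, against 40.9, 50.9 and 46.8 RPKM in controls 2, 5 and 9 (log2 change -0.14, 95% interval -0.39 to 0.11). Both genes overlapped between the genotypes, and control 5 was the highest heart for each.

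Col4a5 and Col4a6, chains of a further type IV network known from kidney and smooth muscle, lie 1308 bases apart on the X chromosome. Col4a5 had 32.2, 25.3 and 27.7 RPKM in mutants 5, 8 and 10, against 26.0, 37.3 and 28.3 RPKM in controls 2, 5 and 9. Col4a6 had 5.10, 4.98 and 4.80 RPKM in mutants 5, 8 and 10, against 4.93, 7.42 and 6.15 RPKM in controls 2, 5 and 9. In both genes a control heart lay inside the mutant range. Col4a3 and Col4a4, the chains of the mature kidney filter, were not tested. Both are listed only through their level in the control hearts, so the sign of their change was nearly fixed. Col4a3 had 0.439, 0.0927 and 0.256 RPKM in mutants 5, 8 and 10, against 0.428, 0.679 and 0.631 RPKM in controls 2, 5 and 9. Col4a4 had 0.460, 0.450 and 0.394 RPKM in mutants 5, 8 and 10, against 0.576, 0.778 and 0.445 RPKM in controls 2, 5 and 9.

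Col15a1 and Col18a1 encode related chains that carry sugar side chains and sit at basement membranes. Their log2 changes were unlike in these hearts. Col15a1 (ENSMUSG00000028339, chr4:47208161-47313167, + strand) had 0.888, 0.872 and 0.380 RPKM in mutants 5, 8 and 10, against 1.71, 2.50 and 1.81 RPKM in controls 2, 5 and 9. Its mean was 64.5% lower, at 0.714 ± 0.289 RPKM in mutant hearts and 2.01 ± 0.431 RPKM in control hearts (SD, n = 3 each), and the log2 change was -0.82 ± 0.15 (SE, limma adjusted p = 0.052). Col15a1 passed the filter only through the control hearts, so the genotypes could not overlap, and the level was low in both. It passed the adjusted threshold in 4 of the 10 alternatives in which it was tested, and with 1 control heart left out, whichever it was, it no longer reached the filter. Col18a1, the source of endostatin, had 38.4, 45.7 and 39.6 RPKM in mutants 5, 8 and 10, against 34.5, 46.0 and 42.1 RPKM in controls 2, 5 and 9 (log2 change 0.02, 95% interval -0.26 to 0.30). The sign of this small change was negative in 4 of the alternatives, as without mutant 8 (-0.06).

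The remaining collagens had 17 rows and 14 tests. They hold fibre-associated, microfibrillar and membrane-spanning chains. None passed the adjusted threshold, 5 were lower at an unadjusted p under 0.05, and the median log2 change was -0.19. For all tested genes the share lower was 6.26% and the median -0.03. Col6a6 is among those 5 and passed the filter only through the control hearts. Col14a1, a fibre-associated collagen, had 2.76, 2.18 and 1.43 RPKM in mutants 5, 8 and 10, against 3.85, 4.08 and 3.60 RPKM in controls 2, 5 and 9 (log2 change -0.65 ± 0.15, limma adjusted p = 0.12). No mutant heart reached the lowest control heart. Without mutant 5 it passed the threshold (limma adjusted p = 0.030).

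Type VI collagen forms beaded microfilaments between cells and fibres. Col6a1 had 13.1, 12.7 and 9.21 RPKM in mutants 5, 8 and 10, against 13.9, 18.7 and 16.5 RPKM in controls 2, 5 and 9 (log2 change -0.46 ± 0.15, limma adjusted p = 0.28). Col6a2, its neighbour 85161 bases away on chromosome 10, had 8.83, 10.1 and 7.01 RPKM in mutants 5, 8 and 10, against 7.68, 10.2 and 9.91 RPKM in controls 2, 5 and 9 (log2 change -0.09 ± 0.15, limma adjusted p = 0.84). The groups were apart for Col6a1 and mixed for Col6a2. Col6a3, the long chain of the same protein, had 2.25, 2.03 and 1.03 RPKM in mutants 5, 8 and 10, against 1.57, 2.60 and 2.28 RPKM in controls 2, 5 and 9. Col6a6, a chain related to Col6a3, had 0.897, 0.874 and 0.520 RPKM in mutants 5, 8 and 10, against 1.48, 1.42 and 2.48 RPKM in controls 2, 5 and 9 (log2 change -0.65 ± 0.16, limma adjusted p = 0.14). Col6a6 passed the filter only through the control hearts, so its groups, at levels near the filter, could not overlap.

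Col16a1, a fibre-associated chain, had 7.001, 7.66 and 6.18 RPKM in mutants 5, 8 and 10, against 7.56, 10.2 and 9.71 RPKM in controls 2, 5 and 9 (log2 change -0.35 ± 0.13, limma adjusted p = 0.35). Col26a1, a small collagen-like secreted protein, had 4.44, 5.22 and 3.10 RPKM in mutants 5, 8 and 10, against 5.42, 5.34 and 6.48 RPKM in controls 2, 5 and 9. Mutant 8 overlapped the controls for Col16a1, and for Col26a1 it lay just below them. The membrane-spanning collagens Col13a1 and Col23a1 had the positive changes among the tested genes of this class, at 0.13 and 0.16 on the log2 scale. The 3 chains of type IX collagen, which decorates cartilage fibres, had log2 changes of -0.01 for Col9a1, -0.19 for Col9a2 and -0.16 for Col9a3. Col12a1, another fibre-associated chain, had a log2 change of -0.32, and Col8a2, of the short-chain type VIII collagen, had -0.08. Among untested rows Col8a1 averaged 0.762 RPKM in mutant hearts and 0.929 RPKM in control hearts. Col25a1, a membrane-spanning chain, averaged 0.723 RPKM in mutant hearts and 0.926 RPKM in control hearts. Col7a1, the anchoring fibril chain of skin, averaged 0.551 RPKM in mutant hearts and 0.554 RPKM in control hearts, with a log2 change of 0.01. It is listed only through its geometric mean in the mutant hearts.

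The 14 non-collagenous genes were all tested, 0 passed the adjusted threshold, and 4 (Postn, Dcn, Nid1 and Fbn1) were lower at an unadjusted p under 0.05. At that level 6.26% of all tested genes were lower. All 14 log2 changes were negative, from -0.58 to -0.03, with a median of -0.19. Over all 13080 tested genes 7513 changes were negative. Postn encodes periostin, which cross-links collagen and marks cushion mesenchyme. It had 46.4, 31.6 and 25.8 RPKM in mutants 5, 8 and 10, against 46.1, 63.6 and 44.1 RPKM in controls 2, 5 and 9 (log2 change -0.58 ± 0.21, limma adjusted p = 0.34). Mutant 5 lay within the controls and the other mutants below them. Sparc had 283, 321 and 302 RPKM in mutants 5, 8 and 10, against 304, 333 and 357 RPKM in controls 2, 5 and 9 (log2 change -0.13, limma adjusted p = 0.66). Fn1, fibronectin, to which cells attach through integrins, had 81.2, 101 and 103 RPKM in mutants 5, 8 and 10, against 97.1, 99.96 and 104 RPKM in controls 2, 5 and 9. All hearts but mutant 5 lay between 97.1 and 104 RPKM, and without mutant 5 the log2 change was 0.02.

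Decorin and lumican are small proteoglycans that bind collagen fibres, and their genes Dcn and Lum lie 46984 bases apart on chromosome 10. Dcn had 25.6, 19.2 and 20.5 RPKM in mutants 5, 8 and 10, against 39.1, 24.9 and 29.1 RPKM in controls 2, 5 and 9 (log2 change -0.48 ± 0.17, limma adjusted p = 0.33). Lum had 21.9, 13.97 and 8.72 RPKM in mutants 5, 8 and 10, against 23.5, 20.9 and 18.2 RPKM in controls 2, 5 and 9 (log2 change -0.55 ± 0.26, limma adjusted p = 0.48). For both genes mutant 5 reached into the control range. Bgn, biglycan of the same family, had 28.2, 28.0 and 25.9 RPKM in mutants 5, 8 and 10, against 26.5, 33.1 and 31.3 RPKM in controls 2, 5 and 9. Versican is the large hyaluronan-binding proteoglycan of the cardiac jelly, and Hapln1 links it to hyaluronan. Vcan had 31.1, 21.2 and 27.2 RPKM in mutants 5, 8 and 10, against 25.3, 42.5 and 27.3 RPKM in controls 2, 5 and 9. Hapln1, its neighbour 43659 bases away, ranged from 9.40 to 19.4 RPKM in mutant hearts and from 10.9 to 17.0 RPKM in control hearts. Both were spread widely within each genotype.

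Fibrillins form microfibrils on which elastin is laid, and fibulins bind to both. Fbn1 had 10.8, 11.2 and 9.59 RPKM in mutants 5, 8 and 10, against 11.4, 13.5 and 13.2 RPKM in controls 2, 5 and 9 (log2 change -0.25 ± 0.10, limma adjusted p = 0.42). The groups did not overlap, though 20.1% of the exon bases of Fbn1 lie over Gm9913 on the opposite strand, and the labels do not say whether reads were counted by strand. Fbn2, the fetal fibrillin, had 21.4, 19.0 and 21.5 RPKM in mutants 5, 8 and 10, against 19.3, 24.1 and 23.0 RPKM in controls 2, 5 and 9. Eln, elastin, had 18.1, 18.7 and 6.96 RPKM in mutants 5, 8 and 10, against 9.01, 35.9 and 21.1 RPKM in controls 2, 5 and 9 (log2 change -0.48 ± 0.47, limma adjusted p = 0.74). Its SE was the largest of the tested members, with mutant 10 and control 2 low and control 5 high. Fbln1 had 17.8, 19.1 and 17.8 RPKM in mutants 5, 8 and 10, against 16.1, 20.0 and 20.7 RPKM in controls 2, 5 and 9. Fbln2 had 25.8, 27.8 and 24.5 RPKM in mutants 5, 8 and 10, against 20.9, 31.8 and 30.1 RPKM in controls 2, 5 and 9. Control 2 was the lowest heart for both fibulins.

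Nid1 encodes nidogen, the basement membrane glycoprotein that joins laminin to type IV collagen. It had 15.6, 16.1 and 15.9 RPKM in mutants 5, 8 and 10, against 18.001, 20.3 and 20.5 RPKM in controls 2, 5 and 9, so the mutants lay close together and below every control. The log2 change was -0.29 ± 0.09 (SE, limma adjusted p = 0.27).

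Set against each other per heart, the fibrillar class lay lower in mutant hearts than the basement membrane class, by an amount that depended on Col15a1. Mean log2 deviations from the control mean over the 8 tested fibrillar genes were -0.39, -0.26 and -0.59 in mutants 5, 8 and 10 and -0.21, 0.19 and 0.02 in controls 2, 5 and 9. Over the 6 tested basement membrane genes they were -0.23, -0.18 and -0.29 in mutants 5, 8 and 10 and -0.19, 0.21 and -0.02 in controls 2, 5 and 9. For basement membrane genes control 2 lay inside the mutant range, and for fibrillar genes just above it. The difference between both classes was -0.08, -0.02 and -0.24 in mutants 5, 8 and 10 and 0.05, 0.05 and 0.11 in controls 2, 5 and 9, a mean difference, mutant minus control, of -0.18, given no test because the members were chosen with results known. Col15a1 is 1 of the 6 basement membrane genes, and its difference was fixed by the filter. Without it, an alternative chosen after seeing the data, the mean deviations of the other 5 were -0.15, -0.08 and -0.12 in mutants 5, 8 and 10 and -0.20, 0.20 and -0.01 in controls 2, 5 and 9, and the class difference was -0.30. With Col15a1 out and a single heart also left out it was between -0.36 (without mutant 8) and -0.21 (without mutant 10). Summed RPKM of the fibrillar genes was 287, 328 and 215 in mutants 5, 8 and 10 and 345, 426 and 406 in controls 2, 5 and 9. Summed RPKM of the basement membrane genes was 175, 193 and 185 in mutants 5, 8 and 10 and 174, 226 and 196 in controls 2, 5 and 9. The ratio of the mean sums, mutant over control, was 0.705 for fibrillar and 0.927 for basement membrane genes.

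**Figure D4:**
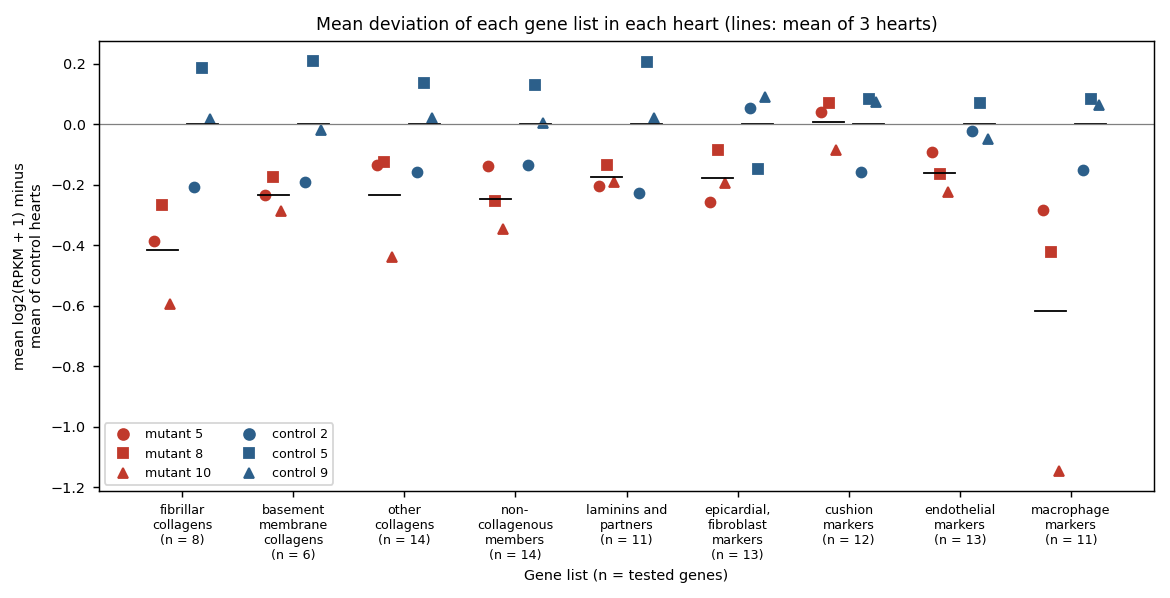
Mean deviation of log2(RPKM + 1) from the mean of the control hearts for the tested genes of each list (n under each name), with a symbol for each mutant heart, left, and each control heart, right, and a line at each genotype's mean. Fibrillar collagens stand at -0.59 in mutant 10 and macrophage markers at -1.15 in the same heart, while cushion markers overlap between the genotypes.

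A direct pair of abundant genes was tested. The log2 ratio of Col1a1 to Col4a1 was 0.45, 0.62 and -0.13 in mutants 5, 8 and 10 and 0.80, 0.54 and 0.79 in controls 2, 5 and 9. Mutant 8 overlapped control 5. The difference was -0.40 (exact two-sided permutation test p = 0.2, where 3 hearts against 3 allow no p below 0.1). For the partner chains Col1a2 and Col4a2 the RPKM ratio was 1.19, 1.34 and 0.809 in mutants 5, 8 and 10 and 1.80, 1.65 and 1.87 in controls 2, 5 and 9.

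The proportion between chains that assemble into the same protein can be read within each heart. Col1a1 over Col1a2 was 1.77, 1.78 and 1.91 in mutants 5, 8 and 10, against 1.55, 1.39 and 1.40 in controls 2, 5 and 9. All mutant ratios lay above all control ratios. Col6a1 over Col6a2 was 1.48, 1.25 and 1.31 in mutants 5, 8 and 10, against 1.81, 1.84 and 1.66 in controls 2, 5 and 9, and here all mutant ratios lay below. Col4a1 over Col4a2 was 1.54, 1.54 and 1.69 in mutants 5, 8 and 10, against 1.59, 1.57 and 1.495 in controls 2, 5 and 9, with overlap. Col5a2 over Col5a1 was 1.77, 1.59 and 1.63 in mutants 5, 8 and 10, against 2.03, 1.82 and 1.56 in controls 2, 5 and 9, also with overlap. These ratios were not tested, and how often other pairs of genes separate by genotype was not counted. The ratios show how the balance of a pair differs between hearts and not which gene of it differs. The size of a ratio also depends on the exon bases listed, such as 6563 for Col1a1 and 12085 for Col1a2, which are the same in every heart.

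**Figure D5:**
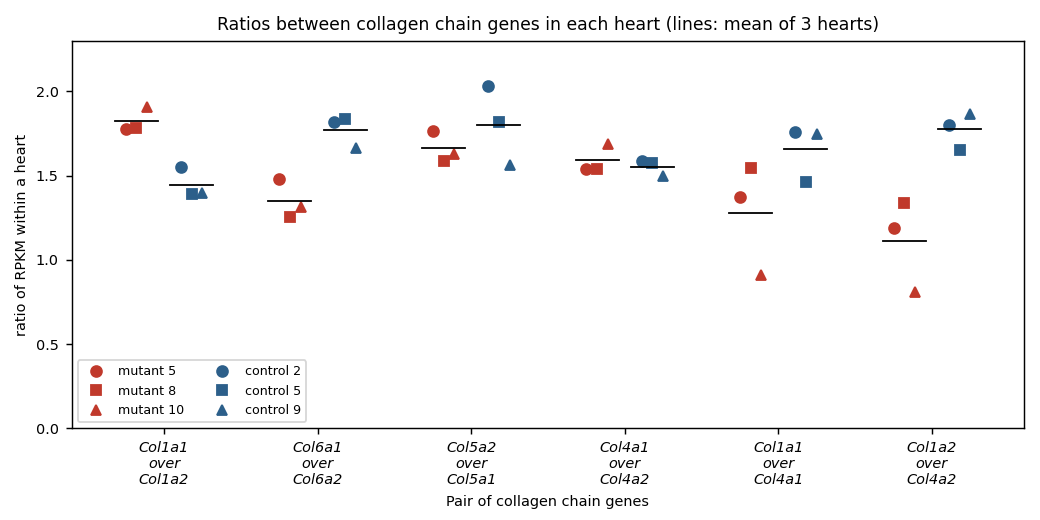
Ratio of RPKM within each heart for 6 pairs of collagen genes, mutant hearts left of control hearts, with lines at the means. Col1a1 over Col1a2 averages 1.82 in mutant hearts and 1.45 in control hearts without overlap, and Col4a1 over Col4a2 averages 1.59 in mutant hearts and 1.55 in control hearts with overlap.

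Genes that partner, process or degrade collagen were described from further lists, in each of which 0 genes passed the adjusted threshold. Beside the counts here and in the next paragraph, 6.26% of all tested genes were lower and 4.92% higher at an unadjusted p under 0.05. The 11 tested laminins and other basement membrane partners had a median log2 change of -0.13. Lama2, the laminin chain of muscle basement membranes, averaged 2.19 RPKM in mutant hearts and 4.06 RPKM in control hearts, with no overlap (limma adjusted p = 0.24). Hspg2, perlecan, averaged 23.2 RPKM in mutant hearts and 28.0 RPKM in control hearts. Of 15 tested genes of procollagen processing and secretion 0 were lower and 0 higher at an unadjusted p under 0.05, with a median of -0.04. Serpinh1, the collagen chaperone HSP47, averaged 292 ± 31.1 RPKM in mutant hearts and 252 ± 14.3 RPKM in control hearts (SD, n = 3 each), higher in each mutant heart than in any control heart (log2 change 0.21, limma adjusted p = 0.51). Pcolce, an enhancer of procollagen cleavage, averaged 21.1 RPKM in mutant hearts and 17.0 RPKM in control hearts. Both log2 changes were positive, but of the 15 tested genes of this list 9 had a negative change and 6 a positive one. Those of the 8 tested fibrillar chains were all negative.

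Of 7 tested collagen receptors 1 was lower at an unadjusted p under 0.05, Itga2, a subunit of a collagen-binding integrin, at 0.648 RPKM in mutant hearts and 1.24 RPKM in control hearts (limma adjusted p = 0.11). It passed the filter only through the control hearts and so had to differ. Of 16 matrix proteases and inhibitors 3 were lower at an unadjusted p under 0.05, with a median log2 change of -0.14. They were Mmp16 (1.02 RPKM in mutant hearts and 1.62 RPKM in control hearts), Adamts5 (0.796 RPKM in mutant hearts and 1.16 RPKM in control hearts) and Mmp11 (3.79 RPKM in mutant hearts and 5.12 RPKM in control hearts). Adamts5 also passed the filter only through the control hearts, so its place in this count was fixed. Among 18 genes of TGF-beta signalling, a pathway known to raise collagen transcription, 0 were lower and 1 was higher at that level, Ctgf, at 16.3 RPKM in mutant hearts and 11.96 RPKM in control hearts (limma adjusted p = 0.38). In this list 15 log2 changes were negative and 3 positive, with a median of -0.06. Of 9 hyaluronan and glycosaminoglycan enzymes 0 passed in either direction, with a median of 0.03.

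Markers of the cells that make matrix were measured in the same hearts, and their part in the matrix values was not tested. Over all tested genes 6.26% were lower and 4.92% higher at an unadjusted p under 0.05. The share lower was near this for epicardial and fibroblast progenitor markers (7.69%) and for cushion and valve mesenchyme markers (8.33%). Of 13 epicardial and fibroblast progenitor markers 1 (Msln) was lower at an unadjusted p under 0.05, the median log2 change was -0.19, and their summed RPKM was 113 to 138 in mutant hearts and 121 to 151 in control hearts. Of 12 tested cushion and valve mesenchyme markers 1 was lower and 1 higher, with a median of -0.04 and a summed RPKM of 70.8 to 76.7 in mutant hearts and 67.6 to 82.9 in control hearts. Endothelial and endocardial markers numbered 13, of which 4 were lower and 1 higher, with a summed RPKM of 163 to 183 in mutant hearts and 172 to 198 in control hearts. Macrophage markers had the lowest median log2 change of the marker lists, -0.62. Of 11 tested, 9 were lower at an unadjusted p under 0.05, and their summed RPKM was 14.8 to 35.6 in mutant hearts and 41.6 to 49.2 in control hearts. By mean log2 deviation mutant 10 was the lowest heart for macrophage markers, endothelial markers, non-collagenous members and the fibrillar, basement membrane and other collagens. For basement membrane collagens this rested on Col15a1, whose difference was fixed by the filter. Without Col15a1 control 2 was lowest at -0.20, with mutant 5 at -0.15 and mutant 10 at -0.12. Epicardial markers were lowest in mutant 5 and cushion markers in control 2. Of the defining markers of cartilage, liver, lung and neural tissue, 7 of 9 have no row here, among them Acan and Matn1 of cartilage. The neuronal tubulin Tubb3 had 2.70, 2.12 and 3.14 RPKM in mutants 5, 8 and 10, against 1.26, 1.81 and 1.87 RPKM in controls 2, 5 and 9, higher in every mutant heart than in any control heart (limma adjusted p = 0.25). Afp, a liver and yolk sac protein, was not tested and had 0.650, 0.233 and 0.0121 RPKM in mutants 5, 8 and 10, against 2.55, 1.32 and 0.241 RPKM in controls 2, 5 and 9. Of the 11 cardiomyocyte markers 3 were higher at an unadjusted p under 0.05 and 0 were lower, and those 3, Actc1, Myl4 and Myl7, did not overlap between the genotypes. Myl7, an atrial myosin light chain, averaged 2066 ± 220.0 RPKM in mutant hearts and 1550.3 ± 226 RPKM in control hearts (SD, n = 3 each, limma adjusted p = 0.27).

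Gene length ran with the log2 change over all genes. When 11453 tested protein-coding genes were split by exon length into 5 bins of nearly equal size, the median log2 change was 0.06 in the bin of the shortest genes and -0.09 in the bin of the longest. The tested members were long, with a median of 6668.5 exon bases against 3709 for those genes, and 23 of the 42 lay in the bin of the longest. In that bin 6.77% of genes were lower at an unadjusted p under 0.05 and 13.2% had all mutant hearts below all control hearts. The part of length in the members' values was not tested further.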

How the data were processed

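Total RNA of 6 hearts was sequenced. The submitters' processing notes name Trim Galore, TopHat2 and mm10, and no source used here gives the counter or strandedness. The authors deposited linear RPKM values per gene. The header names no unit, so it was taken from the values. Between 88.3% and 93.4% of low values of single-exon genes were whole multiples of 1 read within 0.1, against 18.8% to 19.8% for other steps. Every gene in the deposited table has a geometric mean of at least 0.5 RPKM in 1 or both genotypes.

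The program limma 3.58.1 (R 4.3.3) with a mean-variance trend was fitted on log2(RPKM + 1) to 13080 genes (a minimum of 1 RPKM in 3 or more hearts), all 6 hearts, no covariates, two-sided, Benjamini-Hochberg adjusted p under 0.05. A log2 change on this scale understates the change of low genes. The fit was tested on simulated data in which genes varied independently of each other. In these hearts many genes moved together, so the simulation cannot give the rate of false calls here. Intervals are 95%. Exact permutation used SciPy 1.17.1. Positions are from GENCODE M21 (mm10).

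The members and lists were chosen with earlier results of these data known. Values in every heart are given for members at an unadjusted p under 0.05, the 20 highest, the 2 highest of each class, and the chains of collagens I, III, IV, V and VI (35 genes). Of each other list up to 3 genes with the smallest p qualify. In 15 alternatives the pseudocount (0.1 and 5), filter, centring, scaling, trend, prior or hearts differed, and 1 more left out Col15a1.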

Additional observations from a re-analysis of the deposited data

How the results depend on the processing

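No paired analysis was possible because the genotypes share a single sample number (5). With 3 hearts a genotype, single hearts set many values. Genes past the adjusted threshold numbered 107, and 40 (without mutant 10) to 198 (without mutant 5) when a heart was left out, with 52, 43 and 67 without controls 2, 5 and 9. Matrix members past it numbered 0, and 0 to 2 when a heart was left out: Col14a1 and Col15a1 without mutant 5, Col1a1 and Col1a2 without mutant 8. It was 1 (Col15a1) with a pseudocount of 5, 1 (Col15a1) with a robust prior, 2 (Col1a2 and Col15a1) after rescaling without haemoglobin genes, and 1 (Col1a2) without control 2 and mutant 8. Members lower at an unadjusted p under 0.05 numbered 6 to 19 when a heart was left out, against 16, and fibrillar collagens 3 to 7, against 6. The share of all genes lower ran from 3.47% (without control 5) to 9.09% (without mutant 5), against 6.26%. The median log2 change of the other collagens was -0.38 without control 2 and mutant 8, against -0.19. The fibrillar minus basement membrane difference was -0.38 with a minimum of 5 RPKM and -0.36 without control 2 and mutant 8, against -0.18, -0.30 without Col15a1 (chosen after seeing the data), and -0.31 to -0.12 when a heart was left out. Leaving out a control heart also drops Col15a1 from it. Col6a6 too was then below the filter.

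Over the genes given in every heart, 461 values under the alternatives kept their direction and call, 9 came to pass the adjusted threshold and 11 changed sign, none of the 11 past the threshold. When a heart was left out the log2 change of Fn1 ran from -0.15 to 0.017 (without mutant 5), that of Col18a1 from -0.096 (without control 2) to 0.11, with -0.056 without mutant 8, that of Col4a5 from -0.20 to 0.056 and that of Fbln2 from -0.24 to 0.049 (both without control 5), that of Fbln1 from -0.15 to 0.015 (without control 9), and those of Col6a2 from -0.21 to 0.035 and of Col6a3 from -0.34 to 0.0076 (both without mutant 10). Fbln2 was also positive, at 0.010, without control 9. Col18a1 was at -0.024 after rescaling and -0.17 without control 2 and mutant 8. The cause of these changes was not tested. The lowest value of a tested member rests on about 366 implied reads, and implied depth was lowest in mutant 8 and highest in mutant 10.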
